A study of Mus musculus with 19 samples.

Results

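The barcodes (BCs) examined here were 44 sequences of 20 nt, each found at the top ranks of the genomic BC reads of 1 of 5 transgenic (Tg) mouse embryos collected at E11.5. The members were chosen by their reads: ranks 1 to 10 in F1 #1, 1 to 4 in F1 #2, 1 to 6 in F1 #3, 1 to 15 in F0 #8 and 1 to 9 in F0 #9, which makes 20 BCs in F1 and 24 in F0 out of 344 entries in the lists of these 5 libraries, in which a sequence can recur between libraries, and 837 different sequences in the whole series of 19 libraries. All 5 embryos carried an EGFP cassette under the CAG promoter, linked to a BC and flanked by piggyBac ends. The F0 embryos had received mPBase mRNA by electroporation and the donor plasmid by microinjection as fertilized eggs, whereas the F1 embryos inherited their copies from a Tg parent, which the sources used here do not name. The labels give no strain for these 5 embryos. The methods describe C57BL/6J eggs and sperm, and the supplement lists both for the F0 embryos of the single-cell experiment. No cross is stated for the F1 embryos. The comparison embryos, labelled PKW-B6 and written PWK × B6 here, were 9 F0 embryos from B6 eggs and PWK sperm, also collected at E11.5. They received the same kind of donor. The comparison lines #6–10 and #13–25 were cloned mESC lines, pluripotent cells derived from Tg blastocysts. The numbers #8 and #9 of the F0 embryos are those of the labels. Each of the 5 embryos was 1 library of genomic DNA, so the reads of the members have no replicate. Mixtures of DNA from both mESC lines were also sequenced and did not enter the fits below.

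piggyBac is a transposon that its transposase moves from a plasmid into the genome at TTAA sites, and each inserted copy brings the BC of the plasmid molecule it came from. In an F1 embryo, a copy inherited through the germline is present in every cell. In an F0 embryo, a copy that entered after the first cleavage is present only in the descendants of 1 cell, so the amount of each BC in bulk DNA can differ for that reason. Amplification adds a further difference, because a polymerase can copy templates rich in G and C, or with a long run of 1 base, less well than others. The question addressed was how much of the unequal reads among the BCs of one embryo went along with the base composition of the BC in F1 and in F0. Fewer cells with a copy, fewer copies per cell and weaker amplification of a BC cannot be told apart in bulk DNA.

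The sequences are given 5′ to 3′ on the strand of the deposited lists, with the longest run of a single base in capitals, and with every run of that length where several tie. All 10 BCs of F1 #1 are shown, because 8 of them had nearly equal reads despite a wide range of composition.
F1 #1 BC1: GGcAAGGcTTagcaTTacta
F1 #1 BC2: cAActcAActCCacacaGGc
F1 #1 BC3: agtGGtcatcatGGtatagc
F1 #1 BC4: agTTgTTcGGcgtcatgtca
F1 #1 BC5: AAAtcagtactcagtgtaca
F1 #1 BC6: gAAtcgatgagAAtCCgtcg
F1 #1 BC7: gtaagctaCCCtatcgcact
F1 #1 BC8: catactggccAAAccgaacg
F1 #1 BC9: cggatcagttcgctcaaTTT
F1 #1 BC10: aGGcgctcacactcTTcgtc

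From the other F1 embryos, the BCs with the most and the fewest reads of each embryo and those at the ends of the composition range are shown.
F1 #2 BC1: cacgtgctCCCtgcttGGGa
F1 #2 BC2: cagTTTTTgagttatttcgt
F1 #2 BC4: acgtctcgtgTTgcGGcgtg
F1 #3 BC1: gctcTTTgcgcgcGGGcttg
F1 #3 BC6: cggaaTTTTTagtacgaccg

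From the F0 embryos, the same kinds of BCs are shown, together with 1 more, F0 #8 BC4, which was picked after its reads were seen because it has nearly the composition of F0 #8 BC15.
F0 #8 BC1: attcttgtgcagacTTTgat
F0 #8 BC2: tttcaaaccaatGGGGGGct
F0 #8 BC4: ccgccaTTTTgataaggtaa
F0 #8 BC7: ggcctagggttgtaGGGGGa
F0 #8 BC9: ttacgatattctaacgTTTa
F0 #8 BC11: AAATTTaatactgCCCgtcc
F0 #8 BC12: tcTTTTTccggaattgtttg
F0 #8 BC14: gtccAAAAtgctatatccat
F0 #8 BC15: ttAAAAccttgatgccctga
F0 #9 BC1: gcgtcagatcgcgCCCtacg
F0 #9 BC2: gcGGGcTTTagcatgtgTTT
F0 #9 BC5: gtgTTTggtctcgaacgtgt
F0 #9 BC9: cggtcccgccaGGGGaaccc

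The 44 BCs held all bases in similar amounts, with 22.4% A, 24.8% C, 24.0% G and 28.9% T over 880 bases. In the 22 BCs of the PWK × B6 embryos, A made up 4.94% and C 8.99% of the bases against 30.3% G and 55.7% T. These 22 were counted per embryo, and at least 1 sequence was found in more than 1 of these embryos. The 29 BCs of the mESC lines were alike, with 5.69% A and 7.93% C. The share of G and T averaged 53.1% ± 4.73 (SD, n = 5) over the F1 and F0 embryos and 86.1% ± 4.88 (SD, n = 9) over the PWK × B6 embryos, and the ranges of 45.5% to 57.5% and 77.5% to 92% did not overlap. A two-sided exact permutation test of the embryo means gave p = 0.000999, the smallest this design can give, or 0.0030 after Benjamini-Hochberg adjustment over the 3 measures. The share of G and C was higher in the F1 and F0 embryos, at 50.7% ± 5.53 (SD, n = 5) against 39.9% ± 4.02 (SD, n = 9), and the longest run was shorter, at 3.09 ± 0.46 bases (SD, n = 5) against 4.50 ± 1.89 (SD, n = 9), with adjusted exact permutation p of 0.0045 and 0.022. The difference in the longest run did not pass the threshold of 0.05 without F1 #1 (adjusted exact p = 0.0615), and it shrank from -1.41 to -0.851 bases without PWK × B6 embryo #8, whose only BC was not of 20 nt. With only the BC with the most reads of each embryo, G and C differed by 15.8 points, against 10.8 points over all BCs. The longest run then differed by -1.42 bases. Neither difference passed the threshold in that setting (adjusted exact p of 0.0599 and 0.224). The composition of these BCs was known when they were set against the PWK × B6 embryos, so these tests describe the size of the difference and are not independent evidence of it. The study names the same donor plasmid for the F0 embryos of both crosses, but not whether one preparation of it served both. Its list of BCs read from colonies of the pooled donor library includes the sequence of F1 #3 BC2. The composition of that list was not measured here, and the part of the preparation in this difference was not tested.

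Single BCs covered a much wider range than the embryo means. The share of G and C ran from 25% in F0 #8 BC9 to 80% in F0 #9 BC9, with a median of 50%. The share of G and T ran from 20% in F1 #1 BC2 to 75% in 5 BCs, F1 #2 BC2, F0 #8 BC7, F0 #8 BC12, F0 #9 BC2 and F0 #9 BC5. The longest run was 2 bases in 13 BCs, 3 in 18, 4 in 7, 5 in 5 and 6 in F0 #8 BC2, whose run is of G. Of the 13 BCs with a run of 4 or more, 5 had it of T, 4 of G, 2 of C and 2 of A, and 11 of the 13 were in F0. Along the BC, the share of a base at 1 position ranged from 13.6% to 31.8% for A, 11.4% to 36.4% for C, 13.6% to 38.6% for G and 15.9% to 45.5% for T, with 44 BCs behind each value. Differences between F1 and F0 embryo means in G and C, G and T and the longest run did not pass the test (adjusted exact permutation p = 0.60 for each), which could not be passed, since with 3 against 2 embryos the smallest two-sided p is 0.20. The longest run had means of 2.40 to 3.17 bases in the F1 embryos and 3.22 to 3.67 in the F0 embryos, ranges that lay next to each other without overlap.

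No sequence was shared among the 44 members, and no pair of BCs of one embryo was closer than 9 edits, counting insertions, deletions and substitutions. Over the 207 pairs within embryos the median distance was 12 edits, and over the 739 pairs between embryos it was 13, with a minimum of 8. These distances are well beyond those of single sequencing errors. However, the authors had merged similar sequences before the lists were made, so close pairs within a library could have been removed. The distances were not set against those of random sequences.

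The libraries held 467646 to 665455 reads, so a BC with the median reads of its embryo had a counting error of 0.291% to 0.565%. Counting error was therefore small beside the differences among BCs, but it covers only the number of reads, and PCR products without molecular identifiers are not independent molecules. The last member and the first sequence outside the listed ranks were 27722 and 797 reads in F1 #1, 105812 and 2706 in F1 #2 and 55556 and 90 in F1 #3. The 797 and 2706 reads were those of longer sequences that begin with a member, F1 #1 BC1 and F1 #2 BC3. In the F0 embryos they were 15210 and 56 in F0 #8 and 26093 and 640 in F0 #9. Reads chose the members, so the reads below are a description.

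In F1 #1, 8 of the 10 BCs had nearly the same number of reads. BC2 to BC9 had 67718, 67042, 66729, 64739, 63309, 62401, 60759 and 59310 reads, a range of 1.14-fold and a coefficient of variation of 4.82%. Their composition was far from uniform, with 35% G and C in BC5 and 55% in BC2 and BC8, and with 20% G and T in BC2 and 65% in BC4. BC2 and BC4, which differ by 45 points in G and T on the printed strand, had 1.06 and 1.04 times the median reads of the embryo. The remaining pair stood well apart. BC1 had 124606 reads, 1.95 times the median, and BC10 had 27722 reads, 0.433 times the median. BC1 had 45% G and C, 50% G and T and a longest run of 2 bases, all within the range of the other BCs of the embryo. BC10 had 45% G and T and a longest run of 2 bases, but its 60% G and C was the highest of the 10, next to 55% in BC2 and BC8. BC3, with the same G and C and the same longest run as BC1, had 67042 reads, 1.86-fold fewer. BC4 and BC6, the only other F1 pair equal in both, differed 1.05-fold. BC1 and BC10 alone made up 74.1% of the squared deviations of log2 reads from the embryo mean over all 20 F1 BCs.

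In F1 #2, the reads of the 4 BCs were 135066, 121330, 115447 and 105812, between 1.14 and 0.894 times their median. This embryo held a contrast in G and C as wide as any in F1, since BC2 had 30% G and C with a run of 5 T and BC1 and BC4 had 65% G and C. BC2 ranked between them, with 1.02 times the median reads, and BC1 and BC4, equal in G and C, had the most and the fewest. In F1 #3, the 6 BCs had 111649, 96177, 72335, 66979, 64267 and 55556 reads, from 1.60 to 0.798 times the median. Here the order followed the share of G and C more closely: BC1 and BC2 had 70% and 65%, the next pair 55% and 60%, and BC5 and BC6 had 35% and 45%. BC6, with the fewest reads, also had the longest run, of 5 T.

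Steps between neighbouring ranks occurred in F1 as in F0, with 1.84-fold after BC1 and 2.14-fold after BC9 in F1 #1 and 1.33-fold after BC2 in F1 #3. In F0 #8, BC1 to BC6 had 56976, 52998, 49448, 45721, 45209 and 41846 reads, and BC7 to BC13 had between 32056 and 26142. BC14 and BC15 followed with 17275 and 15210 reads, 0.551 and 0.485 times the median. The largest steps between neighbouring ranks were 1.51-fold after BC13 and 1.31-fold after BC6. G and C ran from 35% to 55% in BC1 to BC6, from 25% to 65% in BC7 to BC13 and from 35% to 40% in BC14 and BC15. G and T averaged 52.5%, 62.1% and 42.5% over these levels, lowest in the pair with the fewest reads. BC2, with a run of 6 G, had 1.69 times the median reads, whereas BC14 and BC15, both with runs of 4 A, had the fewest. BC4 and BC15 shared 40% G and C and a longest run of 4 bases and differed by 5 points in G and T, and their reads differed 3.01-fold. This was the widest of the 4 F0 pairs equal in G and C and longest run. Those pairs differed from 1.04-fold upward, with a median of 1.39-fold.

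In F0 #9, 4 BCs lay close together with 74957, 73658, 73212 and 70253 reads, a pair followed with 53087 and 52502, and BC7, BC8 and BC9 had 33149, 29596 and 26093. The steps between these levels were 1.32-fold after BC4 and 1.58-fold after BC6. The first 4 BCs ranged from 45% to 70% G and C, so that 25 points in G and C stood beside a 1.07-fold range of reads. Their longest runs were of 2 or 3 bases, against 3 to 5 bases in the last 3. G and T came to 60% on average in the first 4 BCs and to 43.3% in the last 3. BC9 had the highest share of G and C of all members, 80%, and the fewest reads of this embryo, 0.492 times the median. BC2 and BC5 had the same composition by all 3 measures, with 50% G and C, 75% G and T and a longest run of 3 bases, and their reads differed 1.39-fold.

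To put the measures side by side, log2 of the reads over the embryo median was fitted on the share of G and C, the share of G and T and the longest run, with a separate level for each embryo. In F1, the 3 measures together took up 4.07% of the variance within embryos (20 BCs, 3 embryos). Adjusted for the number of measures the share was -16.5%, where a negative value means that the measures took up less than their number alone does on average. In F0, they took up 20.2%, or 7.64% after adjustment (24 BCs, 2 embryos). The SD of log2 reads within embryos was 0.43 before and 0.47 after the fit in F1, and 0.58 before and 0.55 after it in F0, each taken over its degrees of freedom. Leaving out 1 BC at a time gave shares of 0.812%, without F1 #3 BC6, to 16.1%, without F1 #1 BC10, in F1, and of 14.4%, without F0 #9 BC8, to 37.9%, without F0 #8 BC2, in F0. The share in F1 was 31.9% without F1 #1, 8.92% without F1 #2 and 16.7% without F1 #3. With ranks within embryos in place of log2 reads, the share was 32.0% in F1 and 16.9% in F0, so the order of the generations turned around with the scale of the reads. BCs of one library share the DNA, the PCR and the depth, so these shares and the correlations below describe the BCs, and no p is given for them. Whether the share differed between F1 and F0 was not tested.

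For single measures, the strength of the relation depended on the scale and on a few BCs. For G and C, Pearson's r within embryos was 0.030 in F1 and -0.053 in F0, with Spearman's rho of -0.13 and 0.15, and the r in F1 was 0.54 without F1 #1 and -0.32 without F1 #3. For G and T, r was 0.049 in F1 and 0.32 in F0, with rho of 0.067 and 0.18. For the longest run, r was -0.16 in F1 and -0.29 in F0, with rho of -0.46 and -0.23, and without F1 #3 the r in F1 was 0.037. Without the 2 BCs farthest from the median of the measure, r came to 0.067 and 0.094 for G and C, to 0.083 and 0.42 for G and T and to -0.050 and -0.53 for the longest run in F1 and F0. Split by single bases, r within embryos ranged from -0.16 for C to 0.22 for G in F1 and from -0.27 for C to 0.20 for T in F0.

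The embryos did not share one pattern. For G and C, r was -0.53 in F1 #1 (10 BCs) and 0.81 in F1 #3 (6 BCs), 0.16 in F0 #8 (15 BCs) and -0.30 in F0 #9 (9 BCs). For the longest run, r was -0.042, -0.66, -0.062 and -0.72 in the same order, and rho was -0.50, -0.68, -0.14 and -0.66, below 0 in these 4 embryos by both coefficients. For G and T it was 0.081, 0.045, 0.13 and 0.59. With 4 BCs, F1 #2 was not given a correlation of its own, but its longest runs of 3, 5, 2 and 2 bases from BC1 to BC4 did not follow that direction. Fitted alone, the 3 measures took up 61.6% of the variance in F0 #9 and 6.18% in F0 #8, or 38.6% and -19.4% after adjustment, so the share in F0 rested on F0 #9. In F1 #1 the adjusted share was 6.19%. In F1 #3 it was 64.7%, with 3 measures on 6 BCs, so only 2 degrees of freedom remained.

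The coefficients of one set of embryos were also used to predict the reads of another. Here the share of the squared deviations predicted is negative where the prediction was worse than the embryo mean. The coefficients of the other F1 embryos predicted -18.8% in F1 #1, -396% in F1 #2 and -139% in F1 #3, and predicted and observed values were negatively correlated in all 3 embryos (r of -0.48, -0.57 and -0.50 over 10, 4 and 6 BCs). Those of F0 #9 predicted -32.5% in F0 #8 (r = 0.16), and those of F0 #8 predicted 14.6% in F0 #9 (r = 0.43). Across generations, the coefficients from F1 predicted 9.91% in F0 (r = 0.32) and those from F0 predicted -19.3% in F1 (r = 0.15).

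The size of the fitted differences was as follows. For BCs that differ by 20 points in G and C, the joint fit gave 0.951-fold the reads in F1, with 0.664 to 1.36-fold within 2 standard errors, and 1.09-fold in F0, with 0.793 to 1.49-fold. For 20 points in G and T, the values were 1.03-fold (0.833 to 1.28) in F1 and 1.23-fold (0.950 to 1.60) in F0. For a longest run 2 bases longer, they were 0.849-fold (0.541 to 1.33) in F1 and 0.771-fold (0.547 to 1.09) in F0. The standard errors measure the scatter among BCs that share a library, and so these ranges are no test over embryos.

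Pairs of BCs from the same embryo were compared without a fit. Over all 66 pairs in F1 the reads differed by a median of 1.14-fold, against 1.12-fold in the 8 pairs with equal G and C and 1.14-fold in the 12 pairs that were 20 or more points apart. Over all 141 pairs in F0 the median was 1.51-fold, against 1.58-fold in 18 pairs with equal G and C and 1.43-fold in 35 pairs 20 or more points apart. Pairs with an equal longest run differed 1.09-fold in F1 (28 pairs) and 1.54-fold in F0 (30 pairs). Pairs 2 or more bases apart differed 1.18-fold (8 pairs) and 1.5-fold (46 pairs). In F1 all 8 of these came from F1 #2 and F1 #3, since the longest runs in F1 #1 were of 2 or 3 bases. The F1 medians for the longest run thus also compare different embryos. Pairs at most 5 points apart in G and T differed 1.53-fold in F1 and 1.46-fold in F0, and pairs 20 or more points apart 1.10-fold and 1.56-fold. The value for F1 rested on F1 #1 BC1 and BC10: without them, a choice made after their reads were seen, the 8 remaining pairs at most 5 points apart differed 1.14-fold and the 25 pairs 20 or more points apart 1.09-fold. Pairs share BCs, so these medians are descriptions.

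The largest departures from the joint fit were in BCs already noted for their reads. In F1, F1 #1 BC1 had 1.89 times and F1 #1 BC10 0.439 times the reads given by its composition and its embryo. In F0, F0 #8 BC2, the BC with a run of 6 G, had 2.09 times and F0 #8 BC15 0.535 times the fitted reads. When F1 #1 BC1 and BC10 were left out together, a choice made after their reads were seen, the SD within F1 embryos was 0.23, and the 3 measures took up 26.9% of the variance, or 8.67% after adjustment, which left an SD of 0.22. In these 18 BCs, r and rho were 0.49 and 0.29 for G and C and -0.36 and -0.61 for the longest run, and r was 0.011 for G and T. With these BCs gone, F1 #1 had little spread (SD 0.070), and F1 #3 alone had an r of 0.81.

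The mESC lines offer a comparison in which, as in F1, each copy should be in every cell. Across their 29 BCs the 3 measures took up 37.1% of the variance within lines, or 29.2% after adjustment, and 19.6% without log2, with r of 0.42 for G and C, -0.037 for G and T and -0.55 for the longest run. The corresponding rho were 0.58, -0.30 and -0.089. The lines differed from each other, with r of 0.37 and 0.63 for G and C, -0.18 and 0.22 for G and T and -0.19 and -0.95 for the longest run in #6–10 (20 BCs) and #13–25 (9 BCs). That share was 22.2% without BC9 of line #13–25 and 60.0% without BC1 of line #6–10. The longest run reached 11 bases in these lines, and without the 2 BCs with the longest runs r was -0.028. With G and C, r was 0.63 after the 2 BCs farthest from its median were left out. The slope on the longest run in the joint fit was -0.12 log2 units per base in the lines, beside -0.12 in F1 and -0.19 in F0. The coefficients of the lines predicted 11.8% of the squared deviations in F0 (r = 0.35) and -14.8% in F1 (r = 0.12). None of these differences between lines and embryos was tested.

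Some members were also listed, at low reads, outside their own embryo. This applied to 35 of the 44, always in another of the 5 embryos and in no library of the PWK × B6 embryos or mESC lines. All 15 BCs of F0 #8 were listed in the library of F0 #9, with 14 to 58 reads each and 597 in all, whereas none of the 9 BCs of F0 #9 was listed in F0 #8. Each had between 0.0892% and 0.145% of its reads in F0 #8, and across the 15 BCs the log2 reads in both libraries followed each other with r = 0.90 and rho = 0.84. The order was roughly alike, with BC15 lowest in both libraries at 14 reads in F0 #9, but the most reads there were those of BC6, 58, while BC1 and BC4 had 52 each. The source of these reads was not tested, and they are not an independent measurement of F0 #8. The other 29 members reached at most 19 reads in another library. Sequences longer than 20 nt that begin with a member held 2.34% as many reads as F1 #2 BC3 and 0.640% as many as F1 #1 BC1, and for every other member 0.318% or less.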

How the data were processed

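Genomic DNA was amplified with transgene-specific primers using KOD One and sequenced on an iSeq instrument. The authors cut the BC out of each read by the bases on either side of it and merged similar sequences with starcode, at a distance not given in the sources used here. They deposited counts of reads per BC sequence, without normalization or molecular identifiers, and 0 columns of such values were left unused. No genome was needed.

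The members were chosen, and the measures and comparisons selected, with earlier results of these data known. In the PWK × B6 embryos and mESC lines, BCs were taken as far as the largest drop in reads from one rank to the following one, as in the authors' methods. Composition was the percentage of G and C, of G and T, and the longest run of one base. Least-squares fits of log2 reads over the embryo median, with 1 intercept per library, gave variance shares, slopes and standard errors. Ranks for rho were taken within libraries. Exact permutation tests on the embryo means of composition were two-sided, with p as double the smaller tail, a threshold of 0.05 and Benjamini-Hochberg adjustment over 3 measures. Sequences are shown for the BCs at each end of the reads of an embryo, in F1 also for those above 1.5 or below 0.67 times the median, for the highest and lowest G and C and G and T, for the longest runs, for the largest residuals, and for all of F1 #1. The remaining BCs are given by rank and reads. The fits and exact tests were tested on simulated data. Python 3.11.15, NumPy 2.4.6, SciPy 1.17.1 and Biopython 1.88 (melting temperature) were used. Single-cell RNA sequencing, ddPCR and integration sites were not analysed here.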

Additional observations from a re-analysis of the deposited data

Results flagged for a closer look

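Among the 9 PWK × B6 embryos used for comparison, embryo #9 stood apart in G and C, with 50% in its single BC against 40% in the next highest embryo, a gap of 0.714 of the whole range. Embryo #8 stood apart in the longest run, with 9 bases in its single BC, which was not of 20 nt, against 6 bases in the next, a gap of 0.50 of the range. Chance sets about 1 in 20 groups of like values apart by this criterion, Dixon's ratio, but the values of these embryos rest on differing numbers of BCs.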

How the results depend on the processing

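The variance share of composition in F1, 4.07%, moved by more than its jackknife standard error over BCs (14.9 points) to 32.0% with ranks within embryos, to 19.2% without the BC with the fewest reads of each embryo, and to 26.9% without F1 #1 BC1 and BC10. Without 1 BC or 1 embryo it ranged from 0.812%, without F1 #3 BC6, to 31.9%, without F1 #1. The share in F0, 20.2%, was 61.6% without F0 #8 and 6.18% without F0 #9. In F1, the r for G and C, 0.030, was 0.54 without F1 #1 and -0.32 without F1 #3, and that for the longest run, -0.16, was 0.037 without F1 #3. The cause was not tested. The shares without log2, with each embryo scaled to its own SD, with bases in runs of 3 or more, with the melting temperature and with longer sequences added stayed within that error in F1 and F0, as did the share in the mESC lines without log2 (19.6% against 37.1%) within its own (27.6 points). Against the PWK × B6 embryos, the differences in G and C, G and T and longest run were 9.79 points, -36.5 points and -2.28 bases with the number as a replicate block, where 5 pairs allow an exact p of 0.0625 at least. The numbers are only shared labels of different embryos. With only the first BC of each embryo, G and C differed by 15.8 points (adjusted exact p = 0.0599) and the longest run by -1.42 bases (0.224). With only the BCs found in 1 embryo, the differences were 9.99 points in G and C, -32.9 points in G and T and -1.38 bases. The adjusted exact permutation p were 0.0105, 0.0030 and 0.034. Without 1 embryo at a time the longest run differed by -1.60 to -0.851 bases, the least without PWK × B6 embryo #8, and G and C and G and T kept their side of the threshold. Between F1 and F0, G and T turned from -3.78 to 1.67 points with medians, and G and C ranged from -1.31 points without F0 #8 to 10.9 points without F0 #9.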
